A study of Mus musculus with 12 samples.

Results

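The genes described here are 7 genes of the myelin sheath and of the oligodendrocytes that make it: Mbp, Mobp, Mog, Mag, Cnp, Mal and Cldn11. They were chosen by symbol among the 24079 genes of the deposited count table, and all 7 were found there. All 7 also had the 15 reads, summed over the libraries, that a gene needed to be tested, as did 17823 genes in all.

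Oligodendrocytes wrap axons of the central nervous system in a compacted membrane, the myelin sheath, which insulates the axon and speeds the nerve impulse. The sheath is built from lipids and from a small set of very abundant proteins, whose transcripts mark mature oligodendrocytes in brain tissue. In the hippocampus, myelinated fibres run beside and through the layers that hold the pyramidal neurons.

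RNA bound to tagged ribosomes of mouse hippocampus was sequenced in 12 libraries, 6 per genotype, to ask which transcripts differ in CA1 pyramidal neurons that lack the fragile X protein FMRP. The mice of both groups were C57BL/6J males of 2 to 6 months and carried the RiboTag allele, which encodes the ribosomal protein Rpl22 with a hemagglutinin (HA) tag once Cre is active, and the Wfs1-CreERT2 transgene. The Wfs1 promoter drives this tamoxifen-dependent Cre in CA1 pyramidal neurons. All mice received tamoxifen for 3 days at 100 mg/kg, and hippocampi were dissected 1 week after that. The groups differed in Fmr1 (written Frm1 in the labels of the knockout libraries), which was intact in wild-type littermates and deleted in Fmr1-/y males. Each library was a pool of 4 to 6 mice, and anti-HA antibody was applied to lysate of the whole hippocampus, which contains oligodendrocytes. The study describes HA as restricted to CA1 pyramidal cells, from stains that included no oligodendrocyte marker. Fractions taken before the immunoprecipitation were not analysed here, and from these libraries alone the reads of a myelin gene cannot be assigned to a cell type. By qRT-PCR, the study reports its oligodendrocyte marker Cnp as de-enriched after the immunoprecipitation relative to such a fraction.

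The libraries held 39400980 to 65565479 reads on genes. Reads of Fmr1 numbered 1971 to 2608 in the wild-type libraries, 1 in Fmr1-/y replicate 2 and 0 in the other 5 Fmr1-/y libraries, so every library matched its label. Genes of CA1 pyramidal neurons were detected, which whole hippocampus would show as well, with Camk2a at 6207 ± 409 (SD, n = 6), Wfs1 at 1272 ± 175 and the neuronal glutamate transporter Slc1a1 at 229 ± 13.4 CPM in wild type (read counts scaled by edgeR's TMM method to a common library size). Astrocyte, microglia, endothelial and choroid plexus genes were detected too, with Gfap at 232 ± 24.2, Aif1 at 3.78 ± 0.340, Cldn5 at 8.36 ± 2.28 and Ttr at 8323 ± 2048 CPM. The precursor ribosomal RNA gene Rn45s took 1.80 to 3.88% of the reads in wild type and 0.448 to 3.78% in Fmr1-/y.

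The 7 genes together took 757 to 1146 CPM in wild-type libraries (median 926) and 684 to 1031 CPM in Fmr1-/y libraries (median 815). The means were 932 ± 147 and 827 ± 114 CPM (SD, n = 6 each), so the Fmr1-/y mean was 88.7% of the wild-type mean, a difference smaller than the spread of either genotype. In bulk libraries such as these, fewer cells of a type and less RNA per cell cannot be told apart. Each of the 7 genes was read well above counting noise, from 444 to 760 reads per library for Mog up to 23669 to 36772 for Mbp.

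Divided by length (CPM per kilobase of the merged exons in GENCODE), the wild-type levels were ordered Mbp, Cnp, Mal, Mobp, Cldn11, Mag and Mog. Mbp stood far above the rest at 80.7 ± 12.5 CPM per kilobase, and Cnp was second at 32.0 ± 3.69. Mal at 19.5 ± 2.86, Mobp at 15.9 ± 4.18, Cldn11 at 14.7 ± 2.49 and Mag at 12.8 ± 2.29 followed with mean ± SD ranges that overlapped between neighbours among these 4, and Mog was lowest at 8.48 ± 1.52 CPM per kilobase. With the longest transcript as the length, Mbp came to 137 CPM per kilobase, and Mobp came to 22.6 and passed Mal. Wfs1, a gene of the tagged neurons, stood at 336 ± 46.3 CPM per kilobase in the same libraries, with either length. In Fmr1-/y libraries the length-scaled levels were 70.7 ± 11.4 for Mbp, 33.6 ± 7.28 for Cnp, 16.3 ± 1.79 for Mal and 13.3 ± 2.97 for Mobp. Mag at 12.6 ± 2.94 then came before Cldn11 at 11.8 ± 1.79, 2 genes whose levels overlapped in both genotypes, and Mog was again lowest at 7.64 ± 1.56 CPM per kilobase.

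Against wild type, none of the 7 genes passed the test in Fmr1-/y libraries (edgeR's quasi-likelihood test, adjusted p under 0.05). The same test passed 0.0224% of all genes. DESeq2, which called 0.471% of all genes, and limma voom also called none of the 7. At an unadjusted p under 0.05, 2 of the 7 genes were lower, Mal and Cldn11, at which 3.67% of all genes were lower, 4.29% higher and 7.96% either. The fitted log2 fold changes were below 0 for 6 of the 7 genes, beside 48.6% of all genes. Their median was -0.19, beside 0.00 over all genes tested, and it was -0.11 when 1 surrogate variable was added to the fit.

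**Figure D1:**
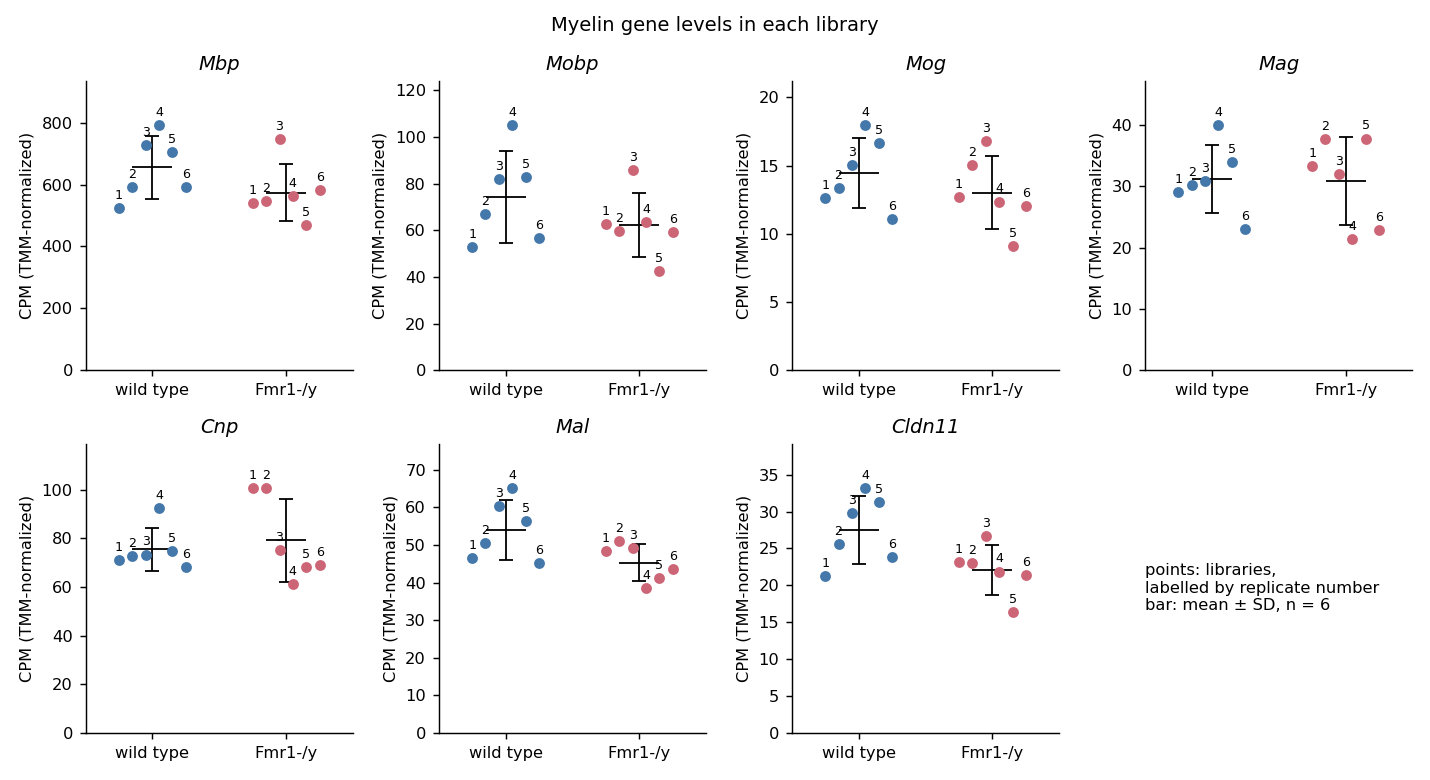
TMM-normalized CPM of the 7 myelin genes in each library, with wild type on the left of each panel and Fmr1-/y on the right. Points are libraries labelled by replicate number, and bars give mean ± SD (n = 6). Wild-type replicate 4 was the highest wild-type library for each gene, and the genotypes overlapped in every panel.

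Mbp encodes the myelin basic protein, which holds the cytoplasmic faces of the sheath together. Its lowest, median and highest levels were 524, 648 and 792 CPM in wild type against 468, 554 and 746 CPM in Fmr1-/y. For Mbp, 5 of the 6 Fmr1-/y libraries lay below the wild-type median, replicate 3 lay near the top of the wild-type range, and replicate 5 lay below all wild-type libraries. The fitted log2 fold change was -0.19 (SE 0.11, 95% interval -0.42 to 0.04, edgeR adjusted p = 0.712). The Mbp locus also produces longer Golli transcripts, which neurons express, and a count per gene does not separate them from the myelin transcripts.

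Mobp encodes a small basic protein of compact central myelin. It had 52.6, 74.5 and 105 CPM as lowest, median and highest values in wild type against 42.4, 61.2 and 85.9 CPM in Fmr1-/y. Fmr1-/y replicate 5 lay below all wild-type libraries, and replicate 3 above 5 of the 6. Its log2 fold change was -0.26 (SE 0.16, 95% interval -0.60 to 0.09, edgeR adjusted p = 0.760).

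Mog encodes an immunoglobulin-like glycoprotein on the outermost surface of the sheath, and Mag a sialic acid-binding adhesion protein on the innermost membrane, which faces the axon. Mog was at 11.1, 14.2 and 18.0 CPM in wild type against 9.12, 12.5 and 16.8 CPM in Fmr1-/y (lowest, median, highest), with a log2 fold change of -0.15 (SE 0.14, 95% interval -0.45 to 0.14, edgeR adjusted p = 0.862). Mag was at 23.0, 30.6 and 40.0 CPM in wild type against 21.4, 32.7 and 37.8 CPM in Fmr1-/y. The Fmr1-/y libraries lay apart for Mag, with replicates 4 and 6 at 21.4 and 22.8 CPM, below every wild-type library, and the other 4 between 32.0 and 37.8 CPM. The log2 fold change of Mag was -0.01 (SE 0.15, 95% interval -0.32 to 0.30, edgeR adjusted p = 0.992), and its sign depended on which library was left out.

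Cnp encodes a phosphodiesterase that keeps cytoplasmic channels of the sheath open, and it serves as a common oligodendrocyte marker. It was the only gene of the 7 with a fold change above 0, at a log2 value of 0.07 (SE 0.12, 95% interval -0.18 to 0.32, edgeR adjusted p = 0.942). Lowest, median and highest levels were 68.1, 73.0 and 92.6 CPM in wild type against 61.3, 72.1 and 100.7 CPM in Fmr1-/y. The upper end of the Fmr1-/y range came from replicates 1 and 2, at 100.4 and 100.7 CPM, while the other 4 lay between 61.3 and 75.2 CPM. Without replicate 1 the log2 fold change of Cnp was -0.0099, and without replicate 2 it was -0.011.

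Mal and Cldn11 encode membrane proteins with 4 spans, Mal a protein of the transport of raft-like membrane to the sheath and Cldn11 the claudin that forms the tight junctions between its layers. Mal had 45.3, 53.5 and 65.2 CPM as lowest, median and highest levels in wild type against 38.5, 46.0 and 51.1 CPM in Fmr1-/y. All 6 Fmr1-/y libraries lay below the wild-type median of Mal and 3 of them below every wild-type library. Its log2 fold change was -0.26 (SE 0.10, 95% interval -0.46 to -0.05), and edgeR gave it an unadjusted p of 0.0175 and an adjusted p of 0.496.

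Cldn11 had 21.2, 27.7 and 33.2 CPM in wild type against 16.4, 22.4 and 26.7 CPM in Fmr1-/y, again with all 6 Fmr1-/y libraries below the wild-type median. The Cldn11 mean in Fmr1-/y was 80.3% of that in wild type, the lowest share of the 7 genes, with a log2 fold change of -0.32 (SE 0.12, 95% interval -0.57 to -0.06). Its unadjusted p was 0.0173 and its adjusted p 0.496 in edgeR, and 0.314 in DESeq2. The genotypes overlapped for Cldn11 and Mal, as for the other 5 genes, whereas 0.623% of all genes showed no overlap.

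Which members passed an unadjusted p under 0.05 depended on single libraries. Without wild-type replicate 4, 0 of the 7 genes did, and without wild-type replicate 1 or without Fmr1-/y replicate 3, 4 of the 7 did. No member reached an adjusted p under 0.05 when any library was left out.

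**Figure D2:**
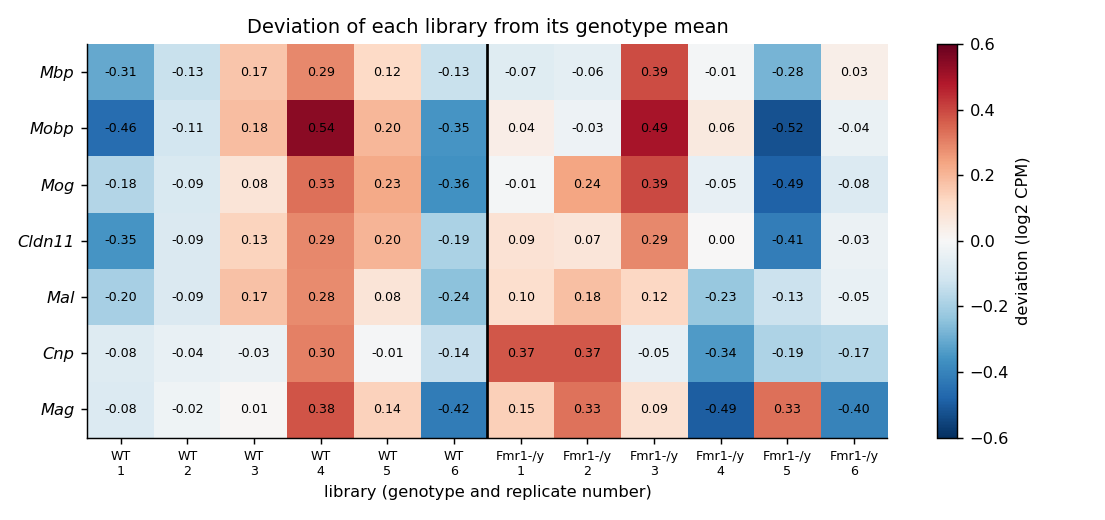
Deviation of each library from the mean of its own genotype (log2 CPM), for the 7 myelin genes in rows and the 12 libraries in columns, with wild type left of the vertical line. Red is above and blue below the genotype mean. Mbp, Mobp, Mog and Cldn11 were high in wild-type replicate 4 and Fmr1-/y replicate 3 and low in Fmr1-/y replicate 5, while Mag was at 0.33 in Fmr1-/y replicate 5 and Cnp at 0.37 in Fmr1-/y replicates 1 and 2.

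Libraries of the same genotype differed in these genes together. Averaged over the 7 genes, the deviation of a library from its genotype mean ran from -0.26 in wild-type replicate 6 to 0.34 in wild-type replicate 4 on the log2 CPM scale, and from -0.24 in replicate 5 to 0.25 in replicate 3 within Fmr1-/y. Mobp spread most, from -0.52 to 0.54.

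The 7 genes did not all move in step. Mbp, Mobp, Mog and Cldn11 moved closely together over the 12 libraries, with Pearson's r between 0.84 and 0.97 and Spearman's rho between 0.86 and 0.98 for their 6 pairs (permutation within genotype, adjusted p from 0.001 to 0.0082 over the 21 pairs of the 7 genes). Without the 2 libraries farthest from the median of the first gene of a pair, in the order listed at the start, r was between 0.71 and 0.96. The closest pair was Mobp and Cldn11, with r = 0.97 (permutation p = 5e-05) and rho = 0.98 (p = 8e-05), and r = 0.96 without wild-type replicate 4 and Fmr1-/y replicate 5. In both genotypes these 6 pairs had similar values, from 0.85 to 0.98 in wild type and from 0.83 to 0.96 in Fmr1-/y. The division of the 7 genes used here was made after these correlations were seen, and all genes of a library share its depth and scaling.

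Mag and Cnp had lower correlations with that group, a difference that was not tested. Their 8 pairs with Mbp, Mobp, Mog or Cldn11 had r between 0.17 and 0.52, and none passed (permutation, adjusted p from 0.18 to 0.62). Without the 2 libraries farthest from the median of the first gene of a pair, r of these 8 pairs ran from -0.14 to 0.79. That of Mog and Mag went from 0.38 to 0.79, inside the range of the first group. For Mog and Mag the libraries left out, Fmr1-/y replicates 5 and 3, were those farthest for Mog, and those farthest for Mag were kept. By Spearman's rho, Cnp with Mog (0.64) and Cnp with Cldn11 (0.60) had an adjusted p of 0.046 each in the same permutation. Within wild type the 8 pairs had r from 0.71 to 0.95, and within Fmr1-/y from -0.25 to 0.41, a difference between genotypes that was not tested. Mag and Cnp had r = 0.69 with each other (permutation p = 0.029, adjusted p = 0.048) and rho = 0.62 (adjusted p = 0.066), and r = 0.56 without Fmr1-/y replicate 4 and wild-type replicate 6. Mal lay between over the 12 libraries, with r from 0.70 to 0.80 with the other 6 genes (permutation, adjusted p from 0.002 to 0.032). Without the 2 libraries left out in the same way, r of the Mal pairs ran from 0.47 to 0.87. Those pairs had r from 0.81 to 0.97 within wild type and from 0.39 to 0.86 within Fmr1-/y.

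**Figure D3:**
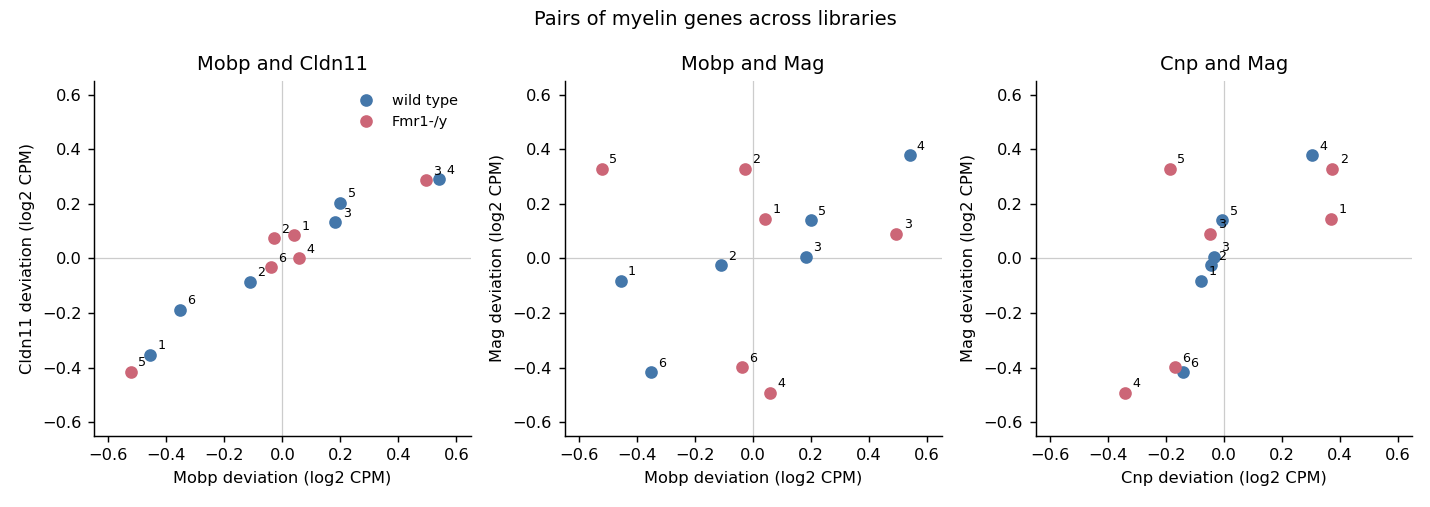
Deviation from the genotype mean (log2 CPM) for Mobp and Cldn11, Mobp and Mag, and Cnp and Mag; points are the 12 libraries, coloured by genotype and labelled by replicate number. Mobp and Cldn11 lie near a line (r = 0.97), whereas Mobp and Mag do not (r = 0.25), where Fmr1-/y replicate 5 is lowest for Mobp and among the highest for Mag.

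Ratios within a library do not depend on its scaling, but they come from the same counts as the correlations and add no independent evidence. The ratio of Mbp to Cldn11 CPM stayed within 22.5 to 24.8 in wild type and 23.3 to 28.6 in Fmr1-/y. The ratio of Cnp to Mobp CPM ran from 0.881 to 1.35 in wild type (median 0.994) and from 0.875 to 1.69 in Fmr1-/y (median 1.38). Mag to Mobp ran from 0.377 to 0.552 in wild type and from 0.336 to 0.890 in Fmr1-/y, with the top value in Fmr1-/y replicate 5. Mobp to Cldn11, the most closely correlated pair, still ran from 2.37 to 3.16 in wild type and from 2.59 to 3.22 in Fmr1-/y, and Mag to Cnp ran from 0.338 to 0.453 and from 0.330 to 0.553.

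The bases before the starts of these genes are shown as a description, and a link between them and the correlations was not tested. Promoters of 6 of the 7 genes were matched in RefSeq on GRCm38.p6. They were searched on both strands for CTGGCAC and CTGGTAC, letters bound by the myelin regulator MYRF, and for ACAAAG and ACAAT, letters bound by SOX factors such as SOX10. The letters were chosen with the members' values known. The sequences below are the 250 bases before the start, read 5′ to 3′ on the strand of the gene, with matches in capitals. Mag and Cnp are shown for their shared CTGGCAC, Mog for its CTGGTAC, and Mobp and Cldn11 as the closest pair:
Mag, chr7:30914923-30915172, minus strand: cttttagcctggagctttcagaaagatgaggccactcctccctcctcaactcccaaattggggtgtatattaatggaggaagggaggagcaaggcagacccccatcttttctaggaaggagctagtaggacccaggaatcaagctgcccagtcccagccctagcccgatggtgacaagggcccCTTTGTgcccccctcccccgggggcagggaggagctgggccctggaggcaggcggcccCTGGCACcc
Cnp, chr11:100574689-100574938, plus strand: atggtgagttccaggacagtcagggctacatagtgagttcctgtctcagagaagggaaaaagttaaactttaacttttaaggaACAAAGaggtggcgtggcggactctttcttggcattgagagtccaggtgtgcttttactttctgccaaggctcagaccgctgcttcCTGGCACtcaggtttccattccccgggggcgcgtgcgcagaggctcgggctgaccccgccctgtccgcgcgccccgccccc
Mog, chr17:37023399-37023648, minus strand: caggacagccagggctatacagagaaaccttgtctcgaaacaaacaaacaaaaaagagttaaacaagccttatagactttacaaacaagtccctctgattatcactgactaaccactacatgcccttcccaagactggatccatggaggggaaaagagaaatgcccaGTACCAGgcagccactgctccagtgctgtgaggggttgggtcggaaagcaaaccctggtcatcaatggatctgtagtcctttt
Mobp, chr9:120149492-120149741, plus strand: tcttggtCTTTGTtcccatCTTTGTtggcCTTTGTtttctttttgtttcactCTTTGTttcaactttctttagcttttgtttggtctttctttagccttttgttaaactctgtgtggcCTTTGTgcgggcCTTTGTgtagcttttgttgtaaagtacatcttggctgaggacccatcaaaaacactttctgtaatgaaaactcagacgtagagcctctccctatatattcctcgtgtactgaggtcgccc
Cldn11, chr3:31149670-31149919, plus strand: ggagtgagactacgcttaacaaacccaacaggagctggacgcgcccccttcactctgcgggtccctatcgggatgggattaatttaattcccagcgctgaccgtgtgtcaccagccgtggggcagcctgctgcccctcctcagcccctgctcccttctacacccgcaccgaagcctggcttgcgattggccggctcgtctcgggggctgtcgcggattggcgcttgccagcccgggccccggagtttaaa

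CTGGCAC stood 9 bases before the start shown for Mag and 81 bases before that of Cnp, and 5.01% of the 32851 promoters searched hold it. These promoters run from 250 bases before to 50 after a start. The last bases of the Cnp stretch lie inside the RefSeq span of the gene, and another start of Mag, lying downstream, has the same CTGGCAC site 68 bases before it. A start of Mag further downstream has none of the 4 strings before it, and of the 3 starts of Mag it alone matched GENCODE transcripts in the bases after the start (2 transcripts, against 0 for each of the other starts). Mog held CTGGTAC once on the other strand, written GTACCAG, 83 bases before its start, and 2.24% of promoters hold those letters. Mobp held ACAAAG 6 times on the other strand, written CTTTGT, from 243 to 120 bases before its start. Mag and Cnp each held ACAAAG at 1 site, and 18.7% of promoters hold it. None of the 4 strings was found in the 250 bases before the starts of Mal and Cldn11, and ACAAT, present in 31% of promoters, in none of the 6 genes. A match is a description of the letters, and binding was not measured.

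The RefSeq genes lie on GRCm38, the build of the deposited counts, at chromosome 9 from 120149742 to 120181488 (Mobp), 17 from 37010740 to 37023398 (Mog), 7 from 30899175 to 30914922 (Mag), 11 from 100574909 to 100591875 (Cnp), 2 from 127633226 to 127656695 (Mal) and 3 from 31149920 to 31164326 (Cldn11). The reads were counted by strand, and 0 exons of other genes overlapped any of these on the same strand.

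A further 60 genes of the oligodendrocyte lineage were examined in 5 groups by role, and all 60 had enough reads to be tested. None passed at an adjusted p under 0.05 in edgeR, DESeq2 or limma voom. At an unadjusted p under 0.05, 2 were lower (St18 and Anln) and 5 were higher (Trf, Car2, Cd9, Cd82 and Gsn), shares of the 60 to be read against 3.67% and 4.29% of all genes. Of these Cd82 and Gsn are named only to complete the count, after their values were seen. Fitted values were below 0 for 34 genes and above 0 for 26, with a median of -0.05.

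Of the 20 genes of membrane and sheath proteins, 15 had fitted values below 0, with a median of -0.11. Cntn2, an adhesion protein beside the nodes of Ranvier, had a log2 fold change of -0.08 (edgeR adjusted p = 0.885). Cd9, a tetraspanin, lay the other way at 42.9 ± 7.27 and 55.1 ± 13.5 CPM (log2 fold change 0.36, edgeR adjusted p = 0.493), with 81.2 CPM in Fmr1-/y replicate 1 and at most 54.7 CPM in the other Fmr1-/y libraries.

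The 9 transcription factors of the lineage had a median of -0.08, with 6 of 9 below 0. St18, a zinc finger factor, had a median of 10.6 CPM in wild type (9.62 to 12.02) and of 8.38 CPM (5.03 to 10.05) in Fmr1-/y, where all 6 libraries lay below the wild-type median and 5 below the whole wild-type range. The log2 fold change of St18 was -0.43 (SE 0.14, edgeR adjusted p = 0.378). Sox8 and Zfp488 had log2 fold changes of -0.06 and -0.08 (edgeR adjusted p = 0.937 and 0.882). Among the 10 genes of precursors and early differentiation the median was 0.04. Pdgfra, the receptor that marks oligodendrocyte precursors, was at 25.9 ± 4.74 and 28.3 ± 5.93 CPM, Bcas1 at 62.8 ± 13.2 and 56.4 ± 11.9 CPM, and Ptprz1 had a log2 fold change of 0.06.

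The 13 cytoplasmic and secreted proteins of mature oligodendrocytes had a median of 0.08, with 9 above 0, and the 8 lipid and metabolic enzymes a median of -0.02. Trf, the iron carrier transferrin, had the smallest adjusted p of the 60 genes, 0.301 in edgeR and 0.0569 in DESeq2, at 144 ± 10.7 CPM in wild type against 203 ± 53.9 CPM in Fmr1-/y (log2 fold change 0.49, SE 0.13). Car2, a carbonic anhydrase, had a log2 fold change of 0.27 (edgeR adjusted p = 0.417), Enpp2, the secreted enzyme autotaxin, of 0.35 (0.703), and Apod, a lipid carrier, of 0.31 (0.663). Anln and Prr5l of the same mature group were at -0.19 and -0.33 (edgeR adjusted p = 0.580 and 0.650).

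**Figure D4:**
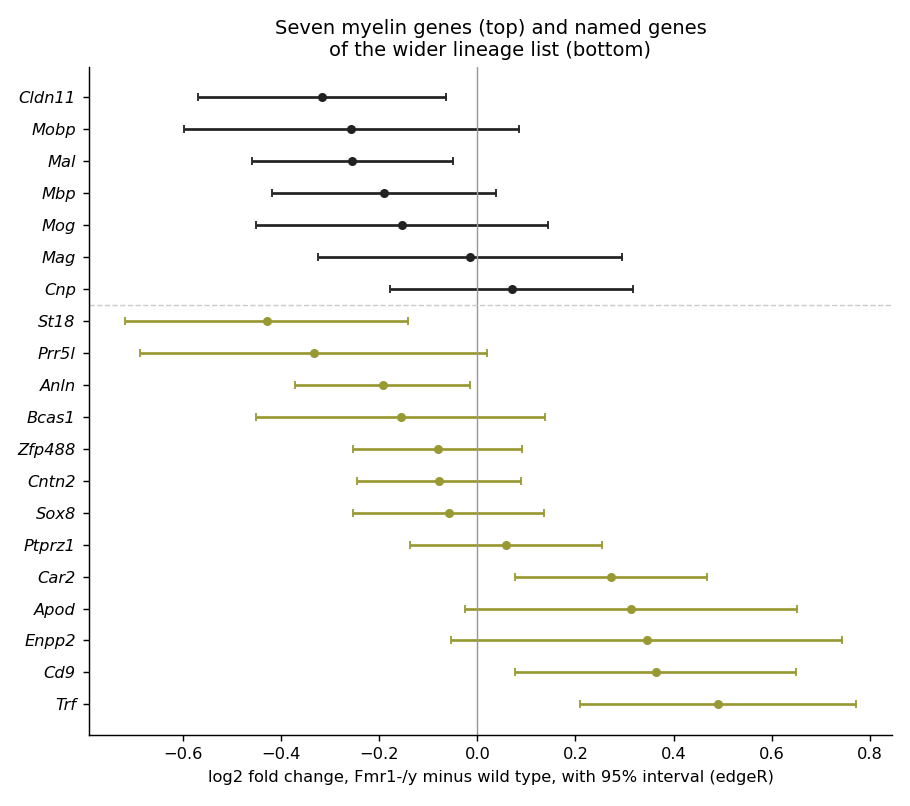
Log2 fold change (Fmr1-/y minus wild type, edgeR) with its 95% interval for the 7 myelin genes, above the dashed line, and for 13 named genes of the wider lineage list below it. Mal and Cldn11 have intervals below 0, as do St18 and Anln, and Trf, Cd9 and Car2 have intervals above 0, though none of these passed after adjustment over all genes.

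Trf, Car2, Enpp2, Cd9 and Apod each had their highest Fmr1-/y value in replicate 1. Among the Fmr1-/y libraries, that replicate also had the highest summed levels of the choroid plexus, astrocyte, microglial and interneuron genes. The 7 choroid plexus genes, with Ttr among them, summed to 6427 to 11938.5 CPM in wild type against 8355 to 17621 CPM in Fmr1-/y. All 7 had fitted values above 0 (3 at an unadjusted p under 0.05 in edgeR, beside 4.29% of all genes higher, and none adjusted). In wild type, Trf and Apod were highest in replicate 1 (161 and 128 CPM), where the choroid plexus genes summed to 7925 CPM. Car2, Enpp2 and Cd9 were highest in wild-type replicate 4, where that sum was 11249 CPM. Choroid plexus is known to express Ttr, Trf and Enpp2 strongly. The part of any of these cell types in the values of Trf, Car2, Enpp2, Cd9 and Apod was not tested.

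Marker lists of other cell types had fitted values on both sides of 0. All 9 astrocyte genes had fitted values above 0 (median 0.23), and their sum was 1397 to 1820 CPM in wild type against 1597 to 2505 CPM in Fmr1-/y. All 8 endothelial genes were above 0 as well (median 0.39), summing to 47.2 to 68.4 and 58.2 to 86.0 CPM. In each of these lists 6 genes had an unadjusted p under 0.05 in edgeR, beside 4.29% of all genes higher. The 7 genes of CA1 pyramidal neurons had fitted values below 0 (median -0.11). They summed to 8362 to 10380.0 CPM in wild type against 8069 to 9595 CPM in Fmr1-/y. Of the 7, 2 (Wfs1 and Neurod6) had an unadjusted p under 0.05 in edgeR, beside 3.67% of all genes lower. Wfs1 itself had a log2 fold change of -0.27 (edgeR adjusted p = 0.410). The 9 microglial genes had a median of 0.02, with sums of 121 to 143 and 121 to 160.4 CPM, and the 8 interneuron genes a median of -0.08, with sums of 114 to 237 and 123 to 177 CPM. No gene of any of these lists passed after adjustment in edgeR, DESeq2 or limma voom, no listed gene was at 0 in all libraries, and their part in the values of the 7 myelin genes was not tested.

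**Figure D5:**
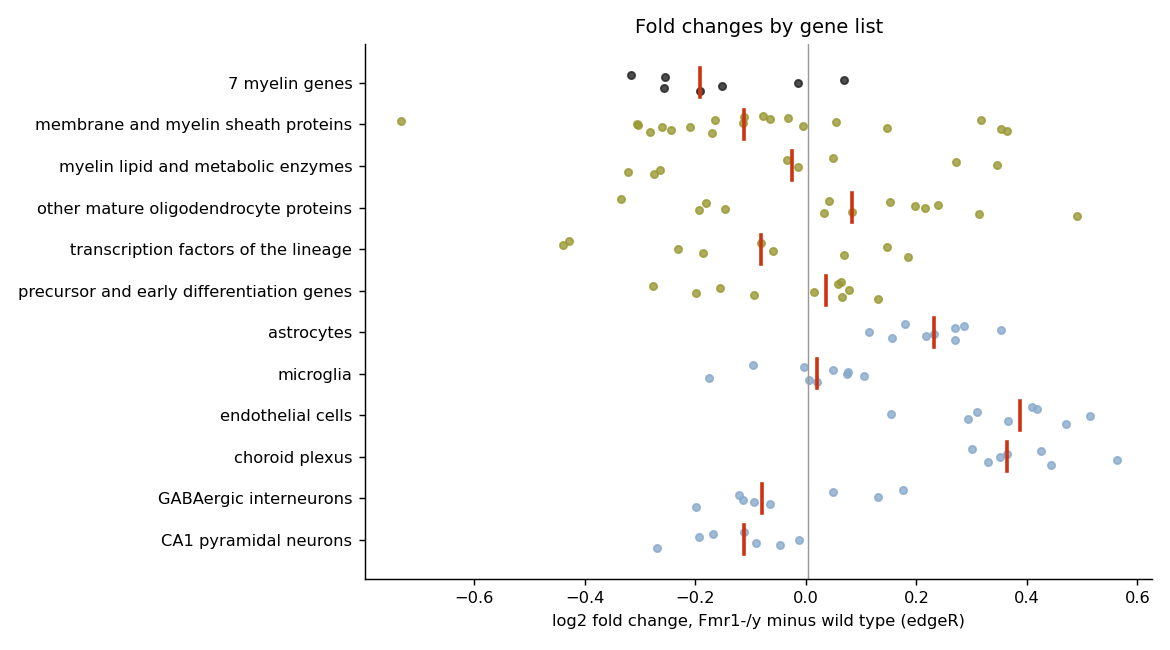
Log2 fold change (Fmr1-/y minus wild type, edgeR) of each gene by list, with the 7 myelin genes on top, 5 groups of other oligodendrocyte genes below and markers of 6 other cell types at the bottom. Points are genes, red bars are medians and the grey line is the median of all genes tested. The median of the 7 myelin genes was -0.19, of the astrocyte genes 0.23 and of the endothelial genes 0.39.

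Patterns over the 12 libraries were also compared outside the 7 genes. Each of 13761 genes with a mean of at least 1 CPM was compared by Pearson's r with the mean deviation of the 7 genes, and over all of them r had a median of -0.00 and 5th and 95th percentiles of -0.59 and 0.57. Among the highest were the tetraspanin Tspan2 with r = 0.89, Tulp3 (0.87), Slc6a19 (0.87) and Fam216b (0.86). By list, the median r was 0.63 for the lineage transcription factors, 0.51 for precursor genes, 0.41 for lipid and metabolic enzymes, 0.37 for membrane and sheath proteins and 0.24 for cytoplasmic and secreted proteins. The lists of other cell types overlapped with these, at 0.47 for interneurons, 0.32 for microglia, 0.27 for choroid plexus, 0.05 for astrocytes, 0.04 for endothelial cells and -0.22 for CA1 pyramidal neurons. The transcription factor Myrf, which drives myelin gene expression, had r = 0.87 with the mean of Mbp, Mobp, Mog and Cldn11 and r = 0.14 with the mean of Mag and Cnp. Olig2 (0.44 and 0.71) and Olig1 (0.06 and 0.72), which specify the lineage, lay the other way. The rest of the 9 lineage factors lay on the side of Myrf. Sox10 had 0.84 and 0.16, Nkx6-2 0.77 and 0.34, and Zfp488 0.67 and 0.24. St18 had 0.58 and -0.04, Nkx2-2 0.52 and -0.02, and Sox8 0.30 and -0.35. Myrf, Olig1 and Olig2 were named after their values were seen, and the rest are given to complete the list. All these values are over both genotypes together, and values of these factors within each genotype are not given. Within wild type, the pairs of Mag or Cnp with Mbp, Mobp, Mog or Cldn11 had r from 0.71 to 0.95. Within Fmr1-/y those pairs had r from -0.25 to 0.41, so the split between factors is not shown for either genotype alone. These correlations are descriptions over libraries that share their scaling.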

How the data were processed

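RNA was purified with poly-T beads after the anti-HA immunoprecipitation, made into stranded libraries and sequenced as 50-base single reads. The authors demultiplexed the reads (bcl2fastq 2.17), aligned them with TopHat2 2.1.1 and Bowtie2 2.2.8 to mm10 with UCSC gene models, and deposited raw counts per gene from HTSeq 0.6.1p1 (union mode, opposite strand), without normalization. The libraries sharing a sequencing lane are not given in the sources used here.

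The deposited counts were tested as they stand. Genes with at least 15 reads in total were fitted in edgeR 4.0.16 (R 4.3.3, TMM, quasi-likelihood test, genotype alone, two-sided), with Benjamini-Hochberg adjustment over all 17823 genes and a threshold of 0.05. A standard error is the fold change divided by the square root of F. Alternatives were DESeq2 1.42.0, limma 3.58.1 voom, other scalings and filters, a robust fit, 1 surrogate variable (sva 3.50.0), a block for the replicate number, another threshold and each library left out. The edgeR, DESeq2 and limma voom fits were tested on simulated counts. The permutations, the promoter search and the other steps were not tested in that way.

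The members and gene lists were chosen with earlier results of these data known. Named are the members, genes of the lineage list by level (2 per role group) or smallest p (3 lower and 3 higher), 5 genes each with the highest and lowest correlation to the members, and defining cell type markers. Correlations used log2 CPM (prior count 2) after removal of the genotype mean, with 100000 permutations within genotype. Promoters and exon lengths came from RefSeq and GENCODE. Same-numbered libraries were not paired, since their deviations correlated between -0.08 and 0.09. No 2 libraries agreed within counting noise. Coordinates and sequence of Mbp, and the values of some genes that this rule names, are not reported here.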

Additional observations from a re-analysis of the deposited data

Results flagged for a closer look

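In 42 groups of 6 libraries (21 genes in 2 genotypes), 5 had a library far from the other 5. The gap of that library to its neighbour, as a share of the range of the group, had to exceed 0.625. In independent groups chance would give about 1 in 20, or 2.1. These groups share their libraries and hold correlated genes, so an excess over chance cannot be read from the 2 counts. For Cnp in wild type the share was 0.727, with 92.6 CPM in replicate 4 and 68.1 to 74.8 CPM in the others. Without that library the log2 fold change of Cnp was 0.14, beside 0.07 with it. For Car2 in Fmr1-/y it was 0.678, with 125 CPM in replicate 1 against 90.0 to 101 CPM, and for Cd9 in Fmr1-/y it was 0.709, again through replicate 1 (81.2 CPM against 43.8 to 54.7). For Sox8 in Fmr1-/y it was 0.698 (29.1 CPM in replicate 4 against 20.4 to 23.0), and for Bcas1 in Fmr1-/y 0.678 (79.1 CPM in replicate 3 against 46.8 to 57.2).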

How the results depend on the processing

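No member and no gene of the 60 of the wider lineage list passed an adjusted p under 0.05 in any of 23 alternatives. With the replicate number as a block, 0 members were called, as without it, and the block changed no other call of these genes. No Fmr1-/y library correlated best with the wild-type library of its own number. The median log2 fold change of the members was between -0.28 (without Fmr1-/y replicate 3) and -0.13 (without wild-type replicate 4) when a library was left out, and their summed level in Fmr1-/y between 84.3% and 92.9% of wild type. The number of members with an unadjusted p under 0.05 was 2, 3 with the replicate block, and 1 with a surrogate variable (the cause was not tested), and it ran from 0 to 4 over the libraries left out. Of 483 values for 21 genes examined, 476 kept their sign and their side of the threshold and 7 changed sign, all of them values of Mag or Cnp. Mag was at 0.0045 with scaling by library totals and between -0.088 and 0.071 with a library left out, and Cnp was between -0.011 and 0.14 with a library left out. These values lie near 0 in every fit. Adjusted p over the alternatives ran from 0.303 to 0.829 for Cldn11 and from 0.335 to 0.798 for Mal. Every member had at least 444 reads in each library, and the intervals rest on 6 pools per genotype. The parts of counting noise and of spread between pools in the width of the intervals were not separated.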

Other observations

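Of the 13761 genes compared with the mean deviation of the 7 myelin genes, the 5 with the most opposite pattern over the 12 libraries were Hdac11 (r = -0.94), Pam (-0.94), Acsl5 (-0.93), Lancl2 (-0.92) and Rasa3 (-0.91). Hdac11, a histone deacetylase, was at 208 CPM in wild type against 194 CPM in Fmr1-/y, and Pam, which amidates peptides, at 149.6 and 146 CPM. Acsl5, a fatty acid activating enzyme, was at 96.9 and 90.2 CPM. None of these 5 genes passed between the genotypes, the smallest edgeR adjusted p being 0.743. Values of all genes in a library share its scaling, and the part of it in these correlations was not tested.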
